A study of Homo sapiens with 12 samples.

Results

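The rows described here are the 181 of 57756 rows in a gene count table that were at 0 in at least 1 of 12 libraries and at 10 or more counts in every library where they were not at 0. They were chosen by their raw counts, so their jumps between 0 and a solid count are a description and carry no test. All 181 could be placed by their symbol in RefSeq (GRCh38.p14), and together they held 176 distinct symbols at 156 loci. A member is one of these rows, a partner row is another row of the same locus, and a library at 0 is one in which the row has no count. The libraries came from A549, an established human lung adenocarcinoma line. A scrambled siRNA was used for 6 libraries (called control). For the other 6, labelled knockdown, the siRNA targeted SLC7A5, which encodes an amino acid transporter subunit. All 12 share the cell line, the oligo-dT library method and 1 batch label.

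A readthrough gene is an annotated transcript unit that starts in one gene and is spliced into the next gene on the same strand. Annotation gives it a hyphenated name and an entry of its own, although most of its exons belong to the upstream or the downstream gene. A short read that lies inside such a shared exon matches both entries, while a read over the splice junction between the 2 genes, or in an exon that one entry lacks, can tell them apart. The same holds for genes nested on 1 strand, for bicistronic genes and for recently duplicated ones.

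Total counts per library ranged from 1896100 to 2109699, with a median of 1965396 in control and 1957263 in the libraries labelled knockdown. SLC7A5 ranged from 23.1 to 31.9 CPM in control (median 27.5; CPM scales counts by the library total) and from 27.0 to 41.9 in the libraries labelled knockdown (median 29.8). The groups overlapped and SLC7A5 was not lower after the siRNA (exact two-sided permutation test over 924 splits, p = 0.195), so group names below follow the labels only. As a list, the line's markers did not stand apart from those of other cell types. Per kilobase of annotated exon, the 8 epithelial and line markers had a median of 8.6 counts, and 6 markers of alveolar type II cells 9.8. The median was 8.8 for 4 leukocyte, 10.7 for 3 endothelial, 7.4 for 4 fibroblast and 8.4 for 3 liver markers. Single line markers spread from 3.9 per kilobase in KRT8 to 17.9 in KRT7, both epithelial keratins, and 21.8 in AKR1B10, an aldo-keto reductase, and the last 2 were the highest of the 28 markers. By the medians of these lists the labelled cell type is not set apart, and what part this has in the switching was not tested.

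Readthrough genes and the genes they join made up the largest class of members. Of the 181 rows, 33 were readthrough rows, taken by name as hyphenated symbols that join other symbols of the table. A further 38 were rows of a gene that a readthrough row contains (called component rows). Members made up 14.7% of the 225 readthrough rows in the table and 8.62% of the 441 component rows. They made up 0.313% of all rows and 0.191% of the 38839 rows that were neither of these, shared no symbol and overlapped no gene on the same strand. Another 36 members overlapped a different gene on the same strand or shared their symbol with a second row. Of the remaining 74, 25 overlapped genes on the opposite strand only, 15 overlapped a row when the strand of one was unknown, and 34 overlapped no row. Protein-coding genes accounted for 116 members and long non-coding RNAs for 54.

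The number of libraries at 0 differed between these classes. Of all members, 99 were at 0 in a single library and 44 in 5 or more. The 71 members of readthrough pairs were at 0 in a median of 4 libraries, and 34 of them in 5 or more. In the other classes the median was 1. None of the 34 members without an overlapping row, such as AFM, CRABP2 and TNNT2, was at 0 in more than 2 libraries. The 25 members that overlapped the opposite strand only reached at most 3, in PROZ, a plasma protein of the clotting system, which was at 0 in control replicates 1, 2 and 3.

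**Figure D1:**
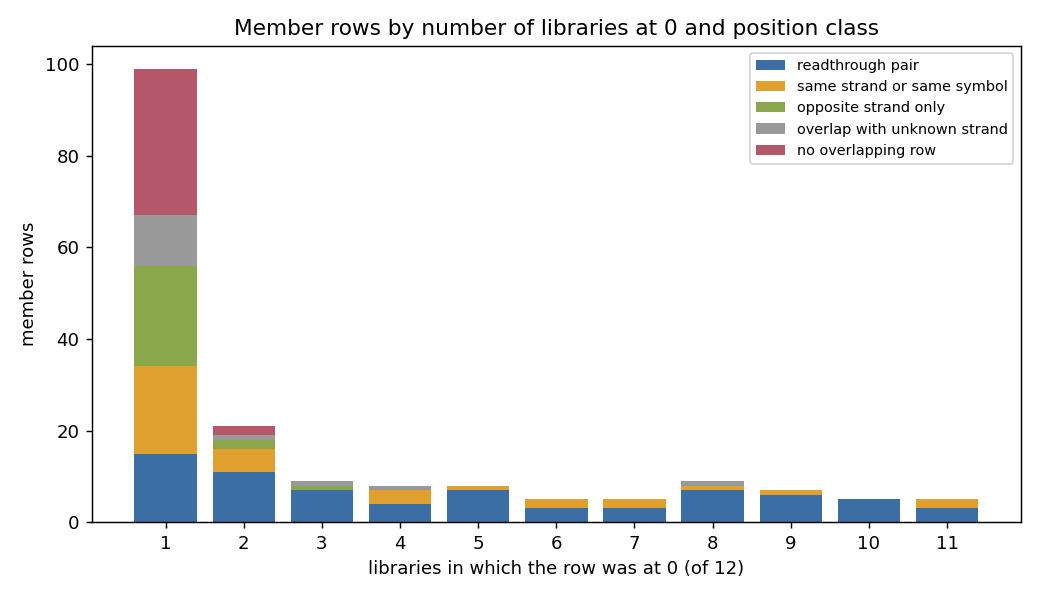
Member rows (vertical axis) by the number of the 12 libraries in which they were at 0 (horizontal axis), stacked by position class. Of the 99 rows at 0 in 1 library, 15 belong to readthrough pairs, while of the 44 at 0 in 5 or more libraries 34 do.

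The rows of a readthrough pair share part of the downstream gene's exons, and each also has sequence that the other lacks. Of the 8 pairs of members whose junction was read from the annotation, 5 are shown, because the junction is what joins the upstream and the downstream gene in 1 transcript. C8orf44-SGK3 and SGK3, also both members, were not searched for a junction. They run from the last 15 bases of the upstream gene's exon, in lower case, to the first 15 bases of the downstream gene's exon, in capitals, 5′ to 3′, read from GENCODE release 29 transcripts (GRCh38). That release is not stated to be the annotation the counts were made on, and it lacks several of the readthrough genes.
ZFP91-CNTF: agtgggacggaacggTTGAGTTAAGGGATG
HSPE1-MOB4: ggttctaaaggaaagGATTTCTATAATTGG
GIMAP1-GIMAP5: caggcggtgaggcagCTGAGTCATGGAGCT
EEF1AKMT4-ECE2: caggtgttgagtgagGTGGGATTCCAGAAG
SLX1A-SULT1A3: tcagaattagaagagGAACATGGAGCTGAT

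The first 4 of these windows occurred in the transcripts of 1 gene, the readthrough gene itself. The SLX1A-SULT1A3 window occurred in 2, since the duplicated readthrough gene SLX1B-SULT1A4 has the same letters. The next stretch is a shared one: the first 30 bases of the downstream exon of ZFP91-CNTF (chr11:58622741-58622770, plus strand) occur in CNTF as well.
CNTF, shared with ZFP91-CNTF: ttgagttaagggatggctttcacagagcat
SULT1A3, shared: gaacatggagctgatccaggacacctcccg
The SULT1A3 stretch (chr16:30200725-30200754, plus strand) occurred in 5 genes, namely SULT1A3, SULT1A1, SULT1A4 and both readthrough genes. Of all 30-base windows in ZFP91-CNTF transcripts, 2.32% lay in neither ZFP91 nor CNTF transcripts. That share was 3.02% for HSPE1-MOB4, 1.18% for GIMAP1-GIMAP5, 0.673% for EEF1AKMT4-ECE2 and 17% for SLX1A-SULT1A3. In the 3 pairs whose junction is not printed it was 9.24% for INMT-MINDY4, 7.53% for RPL36A-HNRNPH2 and 4.52% for LINC02210-CRHR1. Windows found in the upstream gene are left out of these shares, although they too differ from the downstream gene. In the other direction, 37.7% of the CNTF windows, 15.2% of the MOB4 windows, 27.7% of the GIMAP5 windows, 60.2% of the ECE2 windows and 67.7% of the SULT1A3 windows also occurred in the readthrough gene. For HNRNPH2, MINDY4 and CRHR1 these shares were 15.3%, 31% and 62.5%. Over the 8 pairs, between 15.2% and 67.7% of the downstream gene's windows were thus shared with the readthrough gene. The rest did not occur in the readthrough gene, and were not searched for in other genes.

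In 20 cases both the readthrough row and a component row were members, and they took turns. These were 18 distinct gene pairs, 2 of which were present as a second copy of both rows, and copies of a symbol are not independent of each other. Over 20 pairs and 12 libraries, exactly 1 of the 2 rows was counted in 218 of 240 combinations (90.8%), both were counted in 22, and both were at 0 in 0. The rule sets each row to 0 or to at least 10 but does not set which row has the count in which library. The number of zeros in each row already forces part of this share, as for AHRR, which was at 0 in 11 libraries. The share that random placement of the zeros would give was not computed, so 90.8% is a description. In 11 of the 20 pairs, no library had counts in both rows.

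ZFP91-CNTF (chr11:58579114-58625733) and CNTF (chr11:58622665-58625733), which encodes ciliary neurotrophic factor, were the pair whose switch ran closest to the labels. ZFP91-CNTF held 26, 32, 33, 0, 30 and 33 counts in control replicates 1 to 6 and 0 in all 6 libraries labelled knockdown. CNTF held 20 counts in control replicate 4, 0 in the other control libraries, and 35, 22, 24, 26, 25 and 29 in the libraries labelled knockdown. Control replicate 4 was thus counted on the same row as every library labelled knockdown. The sum of both rows had a mean ± SD of 29 ± 5.1 counts over the 6 control libraries and 26.8 ± 4.6 over the 6 labelled knockdown, and over all 12 it lay between 20 and 35.

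RIPPLY2-CYB5R4 (chr6:83853360-83967423) and CYB5R4, an endoplasmic reticulum reductase gene, showed the same exchange at higher counts and with no relation to the labels. RIPPLY2-CYB5R4 held 0, 147, 131, 42, 0 and 125 counts in control and 123, 0, 146, 0, 37 and 0 in the libraries labelled knockdown. CYB5R4 held 114, 0, 0, 70, 116 and 0 in control and 0, 111, 0, 108, 75 and 126 in the libraries labelled knockdown. Each row was alone in 5 libraries, and in control replicate 4 and the library labelled knockdown replicate 5 both were counted. Summed, they held 124.2 ± 13.3 counts in control and 121.0 ± 14.2 in those labelled knockdown (SD over 6 libraries).

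In PDCD6-AHRR (chr5:271646-438285) and AHRR, the gene of the aryl hydrocarbon receptor repressor, a single library moved. AHRR held 82 counts in control replicate 2 and 0 in the other 11 libraries, and PDCD6-AHRR held 0 in control replicate 2 and 66 to 91 elsewhere. TNFAIP8L2-SCNM1, whose downstream gene SCNM1 encodes a splicing factor, was also counted in control replicate 2 alone, with 24 counts, and SCNM1 was at 0 there and at 20 to 32 elsewhere. ZNF660-ZNF197 was at 0 in control replicate 1 and the library labelled knockdown replicate 6, where ZNF197, a zinc finger gene, held 56 and 46 counts and was at 0 in the other 10. SULT1A3, a sulfotransferase of catecholamines, held 24 counts in control replicate 6 and 22 in the library labelled knockdown replicate 4, where SLX1A-SULT1A3 was at 0. No library was the one that switched in all of these pairs.

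BIVM-ERCC5 (chr13:102807146-102875995) and ERCC5, a nuclease of nucleotide excision repair, split the libraries more evenly. BIVM-ERCC5 held 0, 0, 0, 64, 48 and 55 counts in control and 0, 51, 0, 46, 0 and 0 in the libraries labelled knockdown. ERCC5 held 54, 64, 46, 0, 0 and 0 in control and 46, 29, 55, 0, 54 and 53 in the libraries labelled knockdown. Both were counted in the library labelled knockdown replicate 2, where the sum, 80, was also the highest of the 12. GIMAP1-GIMAP5 was counted in control replicates 4 and 5 and in the libraries labelled knockdown 4 and 5, with 17 to 30 counts, and GIMAP5, a GTPase gene of lymphocyte survival, in the other 8 with 20 to 33.

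Some pairs shared their counts in part of the libraries. HSPE1-MOB4 was alone in 6 libraries with 37 to 61 counts, and MOB4, a subunit of a phosphatase and kinase complex, was alone in 3. In the remaining 3 libraries both held 18 to 35 counts and the sums were 38, 55 and 43. TBCEL-TECTA and TECTA, a gene of the inner ear's tectorial membrane, were both counted in 6 libraries, and the sum of the 2 rows stayed between 75 and 123. EEF1AKMT4-ECE2 and ECE2, an endothelin-converting enzyme gene, were both counted in 4 libraries, with a sum between 31 and 63.

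**Figure D2:**
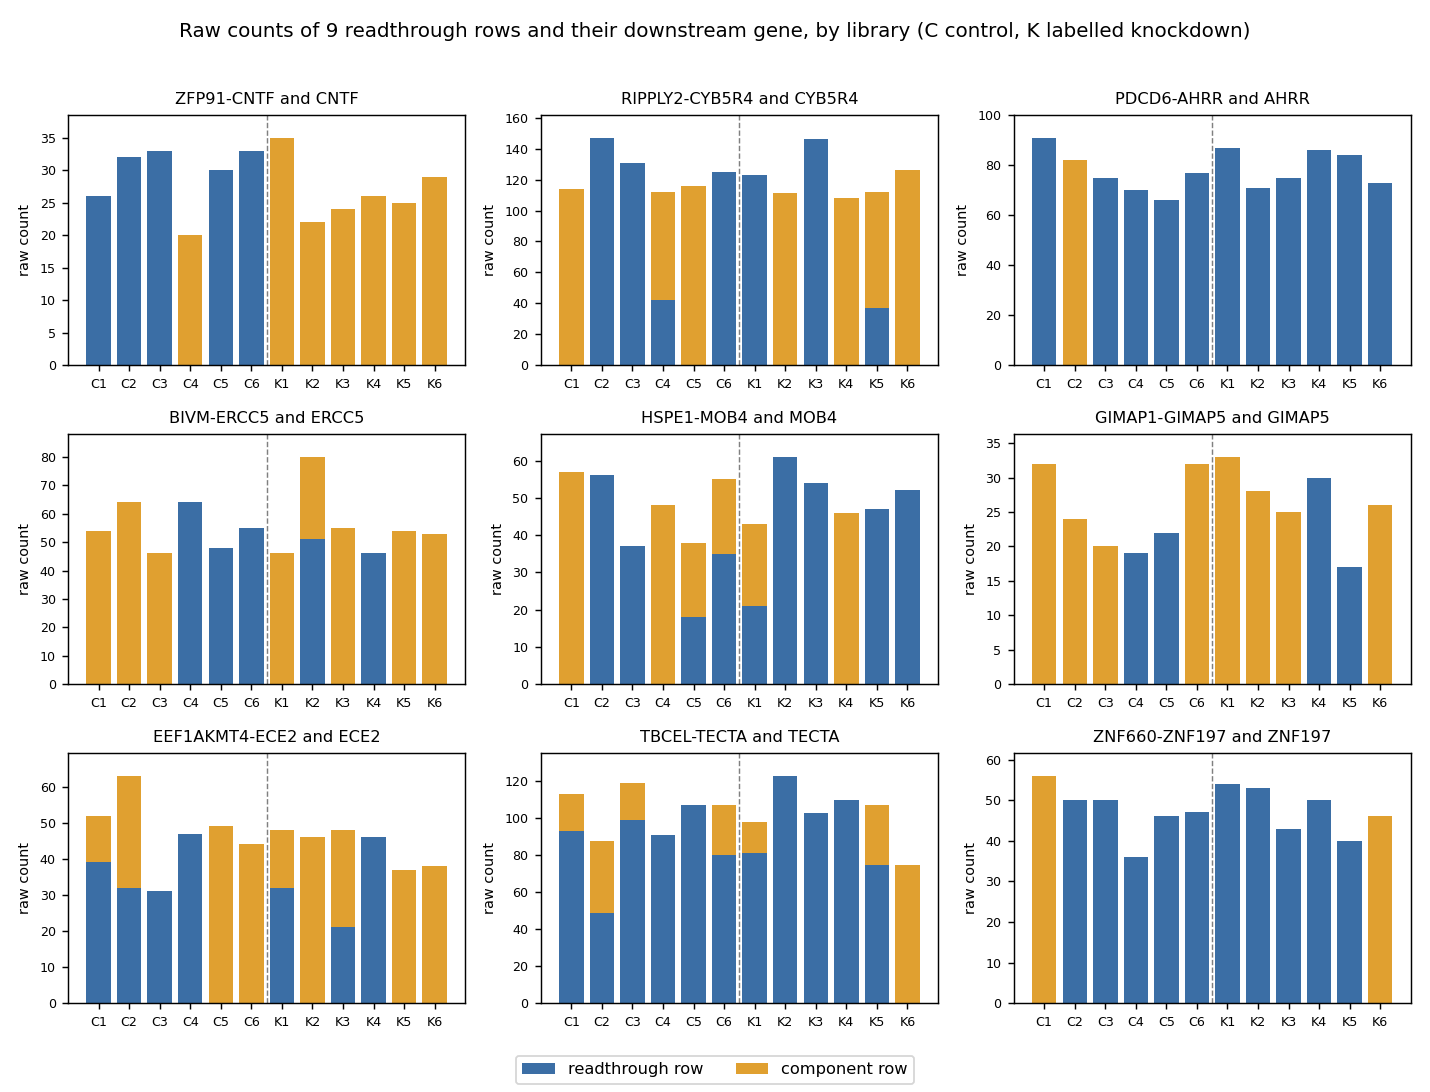
Raw counts (vertical axis) of 9 readthrough rows (blue) and their downstream gene (orange), stacked, in the 6 control libraries (C) and the 6 libraries labelled knockdown (K). The height of the stack is the sum of both rows, which for RIPPLY2-CYB5R4 and CYB5R4 lies between 108 and 147 while either row alone reaches 0.

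The spread of the rows shrank when the rows of a locus were added. As a measure, the variance of the count over the 12 libraries was divided by its mean, which is about 1 for counting noise alone. The 25961 rows that were no member and had a mean of at least 20 counts had a median ratio of 1.2 (5th to 95th percentile 0.45 to 2.52). The members of readthrough pairs had a median of 11.02, which the rule's zeros raise. The sum of all rows of the locus, taken once for each of these members, had a median of 1.29. A locus with several members thus entered more than once. For the 36 members of the same-strand class the medians were 6.06 and 1.8. The 34 members without an overlapping row had 2.37 and no partner row to add.

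**Figure D3:**
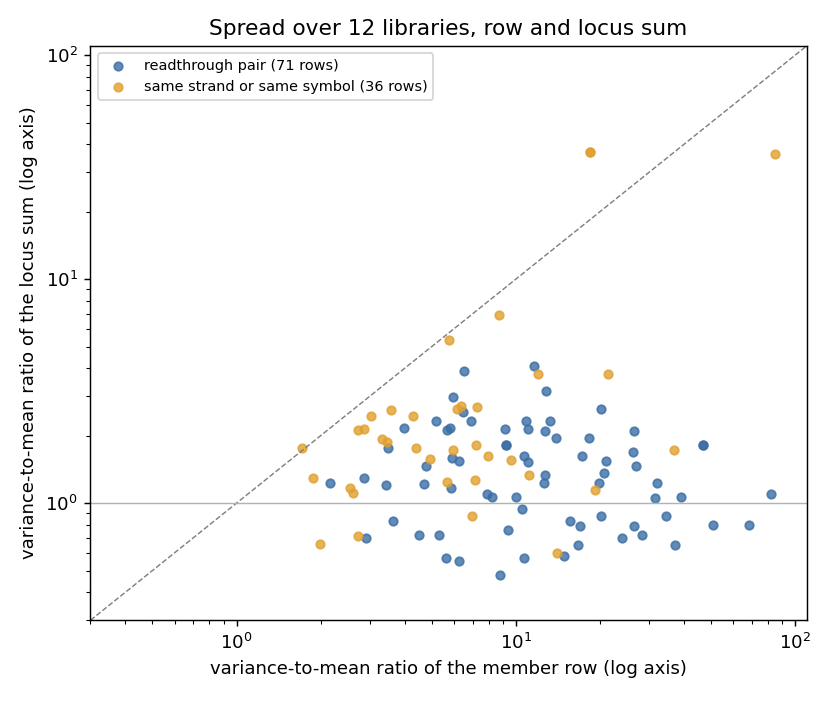
Variance-to-mean ratio over the 12 libraries of each member row (horizontal, log axis) against that of the summed counts of its locus (vertical, log axis) for the 107 members with a partner row. The dashed line marks equal values and the grey line a ratio of 1; the readthrough class has medians of 11.02 and 1.29.

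A sum has a larger mean than each of its rows, which lowers such a ratio by itself. The variance of a summed count was therefore also divided by the sum of the 2 rows' variances, which is about 1 where the rows vary independently, 2 where they are the same, and near 0 where one falls by what the other gains. The 20 readthrough pairs of 2 members had a median of 0.083 (range 0.024 to 0.379). The 74 readthrough pairs with 1 member had a median of 0.657, the 57 other same-strand pairs 0.944 and the 94 opposite-strand pairs 1.014. These 74 include rows of the upstream gene, such as ZFP91 with ZFP91-CNTF. With only the partner row of lowest ratio taken for each of the 71 members of readthrough pairs, the median was 0.117, which that choice itself lowers. Among 170 readthrough and component pairs with no member and a mean of at least 5 counts in each row, the median was 0.695, and 31.8% lay below 0.5. Members were chosen for large jumps, so their ratios and those of these 170 pairs are not like for like.

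**Figure D4:**
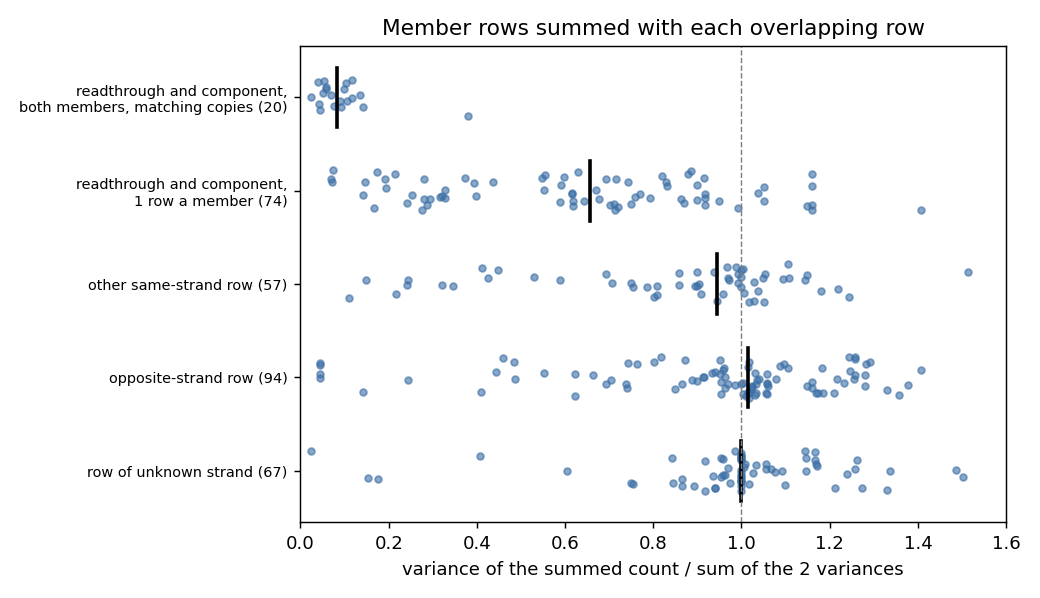
Variance of the summed count of 2 rows divided by the sum of their variances (horizontal axis), 1 point per pair of a member and an overlapping row, by kind of pair, with the number of pairs in brackets and the median as a black bar. Points of the 20 pairs of 2 members lie between 0.024 and 0.379, and the dashed line at 1 marks rows that vary independently.

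The highest value among those 20, 0.379, belonged to CHKB-CPT1B and CHKB, a choline kinase gene, and its locus had a further row. CHKB-CPT1B held 30, 58, 58 and 52 counts in control replicate 4 and the libraries labelled knockdown 2, 3 and 4 and 0 elsewhere. CHKB was at 0 in exactly those 4 libraries. CPT1B, a muscle carnitine palmitoyltransferase gene that is no member, held 18, 3, 2 and 3 there and 35 to 48 in the other 8. The 3 rows together held 47 to 71 counts in every library, with a variance-to-mean ratio of 1.07.

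For other members the partner row did not itself meet the rule. TNNI3K, a cardiac kinase gene, held 38, 30 and 44 counts in control replicates 3, 4 and 6 and 0 elsewhere, and FPGT-TNNI3K held 11, 0 and 6 in those 3 libraries and 36 to 54 in the others. Their sum lay between 30 and 54 with a variance ratio of 0.073. FAM47E-STBD1 and STBD1, a glycogen-binding protein gene, had a ratio of 0.07 and a sum of 25 to 45. ISY1-RAB43 and RAB43, a small GTPase gene, had 0.167, and CTNND1, the gene of p120 catenin, had 0.146 with TMX2-CTNND1. BORCS7-ASMT had 0.111 with AS3MT, an arsenite methyltransferase gene that overlaps it on the same strand. Of the 71 members of readthrough pairs, 62 had at least 1 overlapping row with a ratio below 0.5.

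Among genes that overlap on the same strand and were not matched as a readthrough pair by name, an exchange was seen in part. Of 57 such pairs, 10 (17.5%) had a ratio below 0.5, and 0 of the 11 pairs of rows with the same symbol did. Those 10 include BORCS7-ASMT with AS3MT (0.111), CZ1P-ASNS with ASNS (0.426) and DHX40P1 with TBC1D3P1-DHX40P1 (0.411). The naming rule did not match these hyphenated names to the other gene, so readthrough pairs are not fully kept out of the 10. The examples that follow are among the pairs with low ratios. HTD2, a dehydratase of mitochondrial fatty acid synthesis, and RPP14, a subunit of RNase P, share 1 span (chr3:58306245-58320193). HTD2 held 37 counts in the library labelled knockdown replicate 5 and 0 in the other 11, and RPP14 was at 0 in that library and at 31 to 60 elsewhere. GDF1, a growth factor gene, held 22, 28, 25 and 29 counts in control replicates 3, 4 and 5 and the library labelled knockdown replicate 6. CERS1, a ceramide synthase gene whose exons contain all annotated GDF1 exon bases (100%), held 33, 25, 31 and 43 there and 57 to 83 elsewhere. The sum of GDF1 and CERS1 lay between 53 and 83.

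Pairs outside the named kinds were looked for after the values were seen. PKD1P5 and PKD1P5-LOC105376752, 2 entries of a duplicated pseudogene on chromosome 16, never had counts in the same library. PKD1P5 held 88, 122 and 91 counts in control replicate 2 and the libraries labelled knockdown 2 and 3, and PKD1P5-LOC105376752 held 100 to 122 in the other 9. HCG11, a long non-coding RNA gene, had a ratio of 0.045 with LOC107986583 on the opposite strand, and their sum lay between 29 and 46. GRM5-AS1 had 0.142 with GRM5, a glutamate receptor gene on the opposite strand. Of all 94 opposite-strand pairs, 11 had a ratio below 0.5. The strand setting of the counting is not known here, so the counts of such overlapping genes are uncertain where their exons coincide, and its part in these values was not tested. HCG11 has a second row with the same 12 counts, and that symbol's 2 rows give a ratio of 2.

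A few members with many zeros had no single overlapping row with such a low ratio. Of the 44 members at 0 in 5 or more libraries, 39 had an overlapping row with a ratio below 0.5. The exceptions were CHMP3, NT5C1B, PHOSPHO2-KLHL23, BRIX1 and MYZAP, with lowest ratios of 0.918, 0.828, 0.553, 0.849 and 0.693. These are ratios of 2 rows. The variance-to-mean ratios of these members were 10, 11.64, 20.73, 9.6 and 7.12, and those of their locus sums 1.07, 4.11, 1.36, 1.56 and 1.27. The larger mean of a sum lowers these in part. PHOSPHO2-KLHL23 with PHOSPHO2 and KLHL23 held 52 to 89 counts. CHMP3, a membrane remodelling gene, held 10 counts in control replicate 2 and 0 elsewhere, and NT5C1B, a nucleotidase gene, held 14 to 34 in the 7 libraries where it was counted. Of the 99 members at 0 in a single library, 24 had an overlapping row with a ratio below 0.5. The member with the highest counts, LOC124904195 (chr1:64552754-64579844), held 331 to 387 counts in control and 424, 325, 337 and 325 in 4 libraries labelled knockdown. It was at 0 in the libraries labelled knockdown 1 and 5. CACHD1, which it overlaps, held 66 to 107 counts in the 12 libraries, and the ratio of the pair was 1.032. LOC124902173 was at 0 in control replicate 6 and at 63 to 95 elsewhere, and its ratio with ZNG1C was 1.029.

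At the edge of the rule, 43 members had a lowest nonzero count of exactly 10, and 54 rows that were left out had one of 9 and no lower. LOC550113 (10 to 36 where counted, 2 libraries at 0) and LINC02112 (10 to 35, also 2) were just inside. THOC7, an mRNA export gene (9 to 26 where counted, 2 libraries at 0), and SRM, the spermidine synthase gene (9 to 23, 1 library at 0), were just outside.

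The last question was whether the switching followed the siRNA label. Between 44 and 49 members were at 0 in each control library (median 46) and between 39 and 48 in each library labelled knockdown (median 45.5), so the groups overlapped. For members of readthrough pairs the numbers were 26 to 29 and 27 to 31. These totals cannot show whether the switch of a pair followed the label. In the 20 readthrough pairs of members, exactly 1 row was counted in 218 of 240 combinations of pair and library. Such a pair adds 1 zero whichever row has the count. In edgeR's quasi-likelihood test over all rows, 0 of the 150 members tested passed an adjusted p of 0.05, where 0% of 35754 rows passed. The other 31 members were at 0 in 7 or more libraries and did not pass the filter on low counts. At an unadjusted p under 0.05 there were 6 of 150 (4%), beside 1638 of 35754 rows (4.58%). The other fits put the members above all rows on this count. Limma voom gave 20 of 150 members (13.3%) beside 4.86% of rows, edgeR without the low-count filter 12 of 181 (6.63%) beside 3.61%, and DESeq2 7 of 173 (4.05%) beside 1.94%. Members were chosen by these same counts, and both rows of a pair and copies of a row enter separately. These shares are therefore no test of a link between members and label. No member had CPM values that did not overlap between the groups, where 0.0783% of rows lay higher and 0.106% lower in the libraries labelled knockdown without overlap.

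**Figure D5:**
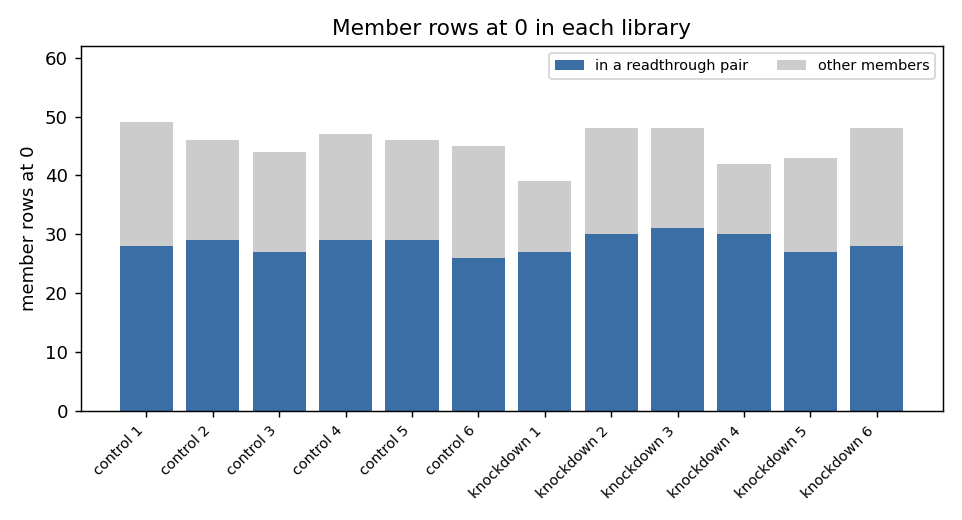
Member rows at 0 (vertical axis) in each of the 12 libraries, with members of readthrough pairs in blue and the others in grey. Totals range from 44 to 49 in control and from 39 to 48 in the libraries labelled knockdown.

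CNTF had the smallest unadjusted p among the members, with a log2 difference (libraries labelled knockdown minus control) of 2.96 ± 0.73 (SE), an unadjusted p of 0.002 and an adjusted p of 0.998 in edgeR's quasi-likelihood test. ZFP91-CNTF was among the rows not tested by edgeR. DESeq2 called ZFP91-CNTF lower, as the single call among 57010 rows (0.00175%), and limma voom called CNTF higher, as the single call among 35754 (0.0028%). Without control replicate 4, edgeR called both, CNTF higher and ZFP91-CNTF lower. The other members with an unadjusted p under 0.05 in edgeR were LOC124900416, HCG11, ACAT2, an acetyl-CoA acetyltransferase gene, and SMIM2-AS1. Their log2 differences were 1.91 ± 0.80, 2.36 ± 1.00, 0.79 ± 0.29 and -0.72 ± 0.33, each with an adjusted p of 0.998 in edgeR. HCG11 is among the 6 members at that level as 2 rows with the same counts. The median size of the log2 difference was 0.283 over the members tested and 0.097 over all rows tested. The rule's zeros raise this size for members whatever the label, so these medians do not measure a response to the siRNA.

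The same test was run with each member and its partner rows replaced by their sum. Of the 156 loci, 82 had more than 1 row, and in the others the sum was the member row itself. In edgeR 0 of the 155 loci tested passed, where 0% of 35670 rows passed, and 4 had an unadjusted p under 0.05 (2.58%, beside 4.64% of all rows). Among these 4, ACAT2 and SMIM2-AS1 were such single rows, HCG11 was 2 rows with the same counts, and NCAL1 was a sum of 4 rows. DESeq2 and limma voom also called 0 rows on this table. The sum of ZFP91, ZFP91-CNTF and CNTF held 92.8 ± 10.6 counts in control and 102.2 ± 10 in those labelled knockdown (SD over 6 libraries), a log2 difference of 0.13 ± 0.09 (SE) with an adjusted p of 0.996 in edgeR. RIPPLY2, RIPPLY2-CYB5R4 and CYB5R4 together gave a log2 difference of -0.01 ± 0.07, with rows of -0.54 ± 1.04 and 0.48 ± 0.99 before summing. The median size of the log2 difference over the loci was 0.13. This is not like for like with the 0.283 of the member rows. The loci include those of members not tested as rows, and a partner row with high, steady counts lowers the log2 difference of a sum. Separate cultures are not stated for the replicates, so these p-values measure only the spread between the libraries, which may be technical.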

How the data were processed

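Counts are the authors' deposited whole numbers per row and library, taken without scaling. The submitters' processing notes list Bowtie2, RSEM 1.3.1 and DESeq2 1.4.5 on GRCh38, with no role given for each. RSEM as a rule divides reads that match several entries among them. Whether that made these counts, the annotation and the strand setting are not given in the sources used here. The counts also include 5275 rows with names that begin with STRG, 4 of them members, and no listed tool is named as their source. The members, lists and rules were chosen with earlier results of these data known. Partner rows share the member's symbol, are its readthrough or component rows, overlap it on the same strand (RefSeq GRCh38.p14 spans, strand for 136 members from RefSeq, 28 from GENCODE 29, none for 17) or have an identical promoter; an identity rule on proteins was not used here. Named are SLC7A5, members at 0 in 5 or more libraries, the 30 members with a partner row and the 5 of all with the highest mean, and rows at the threshold; others were chosen after their values were seen. Groups were compared in R 4.3.3 with edgeR 4.0.16's robust quasi-likelihood test (TMM factors, filterByExpr, Benjamini-Hochberg adjustment), tested on simulated data, with limma 3.58.1 and DESeq2 1.42.0 as alternatives.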

Additional observations from a re-analysis of the deposited data

Results flagged for a closer look

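Summed counts of the pairs of members, the members at 0 per library, total counts and SLC7A5 were checked in each group for a library far from the rest (58 groups of 6, of which chance alone would set apart about 1 in 20). The members' own counts were not checked, since the rule sets their zeros. In the summed count of BIVM-ERCC5 and ERCC5, the library labelled knockdown replicate 2 held 80 and the other 5 held 46 to 55. In that of MPV17L-BMERB1 and BMERB1, the library labelled knockdown replicate 1 held 20 and the others 14 to 16.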

How the results depend on the processing

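The number of members was 1692 with a minimum count of 5 and 54 with a minimum of 20, against 181 with 10. It stayed 181 with counts of 0 or 1 taken as 0, and leaving out 1 library gave 174 to 189. Rows called between the groups numbered 0 in edgeR, also with RLE size factors or no low-count filter, and 1 each in DESeq2 and limma voom. Leaving out 1 library gave 0 to 2, and the 2 appeared without control replicate 4. Locus sums gave 0 calls under each of these alternatives, and 0 to 0 without 1 library. The SLC7A5 difference was 3.5 CPM, 3.66 with TMM scaling, 6.83 in raw counts and 1.42 to 4.39 without 1 library, with no p below the threshold (exact p of 0.1407 to 0.4286 without 1 library). The replicate numbers are shared by both groups, but same-numbered libraries did not deviate together (correlations of -0.011 to 0.023). With the replicate block, 0 rows and 0 locus sums were called, and SLC7A5 gave 3.5 with an exact sign-flip p of 0.1875. Of 629 alternative log2 differences for 37 named rows tested by edgeR, 28 changed sign without a call and 2 gained one, both for CNTF. With totals of 1896100 to 2109699 counts per library, the members had a median of 21.9 counts where counted, so small differences were not detectable.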
